A study of Mus musculus with 8 samples.

Results

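The genes described are 10 markers of arterial and venous identity of endothelial cells (ECs), taken by name from the 20408 genes of the expression tables: the arterial genes Gja4, Gja5, Sox17, Efnb2, Sema3g, Bmx and Cytl1, and for comparison the venous genes Nr2f2 and Ephb4 and the Notch target Nrarp. They were measured by droplet-based single-cell RNA sequencing of tumour ECs, sorted as CD45-/CD31+ live cells, in 8 libraries. Spontaneous breast tumours were those of 9-week-old MMTV-PyMT mice, in which a mammary tumour virus promoter drives an oncogene in the mammary epithelium, and implanted breast tumours were grown from cultured MMTV-PyMT tumour cells placed in the mammary fat pad of female mice 8 to 9 weeks old. C57BL/6 stands in the labels as the strain of every library and FVB in the methods, so the strain cannot be told from the sources used here. Tumours of each model received i.t. PBS or cGAMP, a cyclic dinucleotide that activates the sensor STING, and were taken 3 h later. This gave 4 groups of 2 libraries, PBS and cGAMP in each model, named here by model and treatment (for example spontaneous PBS). By the methods 2 mice were used per group. Nothing in the labels ties a library to 1 mouse, so p-values measure the spread between these libraries, which may be technical.

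The files held 8204 cells, of which 7159 (87.3%) carried at least 1 unique molecular identifier (UMI) of Pecam1, the gene for CD31. All levels refer to these Pecam1 positive cells unless stated, and are given as CPM, the UMIs of a gene in a cell scaled to a common total of UMIs per cell and averaged over the cells of a library. There were 601 to 1529 per library, with 7451522 to 16338968 UMIs. The defining endothelial markers were all detected, with summed levels of 6140 to 7327 CPM in every library and no marker at 0. Replicate 1 of implanted cGAMP stood apart: 75.5% of its cells were Pecam1 positive against 88.7% to 92.8% elsewhere, their median depth was 3049 UMIs against 9523 to 14708, and 37.9% of them had fewer than 2000 UMIs against 3.28% to 10.6%. The responses of the members in implanted tumours are therefore also given without it. Between 0 and 4 cell barcodes of a library also occurred in another library.

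Arterial and venous ECs carry different gene programmes, set early in vessel formation by VEGF, Notch and SOXF factors on the arterial side and by the nuclear receptor encoded by Nr2f2 on the venous side. Ephrin-B2 on arterial ECs and its receptor EphB4 on venous ECs form the classical pair that keeps the vessel types apart. Tumour vessels are disorderly, but ECs with arterial genes are regularly found among them, next to capillary, venous and lymphatic ECs.

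Whether the arterial genes marked the same cells was examined first. For each gene, cells with a UMI of at least 2 of the other 6 arterial genes (arterial-positive cells) were compared with cells that had none of them (arterial-negative cells), so that a gene never chose its own cells; for Nr2f2, Ephb4 and Nrarp all 7 arterial genes were used. In the connexin gene Gja4, the level was 336 to 730 CPM in arterial-positive cells and 20.5 to 122 CPM in arterial-negative cells over the 8 libraries. The gap junction partner Gja5 was at 44.5 to 167 CPM against 0 to 5.87 CPM. The 2 ranges did not meet in either gene, and in Gja5 no UMI was found in the arterial-negative cells of several libraries. Sox17, Efnb2, Sema3g and Bmx were likewise higher in arterial-positive cells in 8 of 8 libraries, with mean log2 differences of 1.70 ± 0.34 for Sox17, 2.35 ± 0.25 for Efnb2, 4.28 ± 0.79 for Sema3g and 3.49 ± 0.94 for Bmx (mean ± SD over libraries, on the log2(CPM + 1) scale). For each of these 6 genes the exact two-sided sign-flip permutation test over libraries gave p = 0.0078, the smallest value 8 libraries allow. The genes were chosen as markers with earlier results of these data known, so the permutation p-values here and below are no independent test that they mark the same cells.

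Cytl1, which encodes a small secreted protein, gave less clear values. It was higher in arterial-positive cells in 6 of 8 libraries, with a log2 difference of 1.997 ± 2.10 (exact permutation p = 0.047). Leaving out a single library gave p of up to 0.094, and in cells thinned to 2000 random UMIs, which gives all cells 1 depth, the difference was 3.39. In the PBS libraries its arterial-negative cells held 30.9 and 120 CPM in spontaneous tumours and 103 CPM in both implanted libraries, next to 102 and 69.6 CPM and to 98.8 and 155 CPM in arterial-positive cells. Cytl1 RNA was thus not limited to cells with other arterial genes. Of the 18 to 112 cells with a Cytl1 UMI in a PBS library, 50% to 73.8% had at least 2 other arterial genes, whereas of the cells with a Gja5 UMI 94.8% to 100% did so over all libraries.

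Among the comparison genes, Nr2f2 was lower in arterial-positive cells in 8 of 8 libraries, by 0.63 ± 0.34 on the log2 scale (exact permutation p = 0.0078). Ephb4 was higher in arterial-positive cells in every library, by 0.41 ± 0.21, but in thinned cells the difference was 0.20 (exact permutation p = 0.16). In these data, then, Ephb4 RNA was not lower in cells with arterial genes, while Nr2f2 RNA was. Nrarp, a small ankyrin repeat protein that is induced by Notch and damps it, was higher in arterial-positive cells by 0.85 ± 0.31 in 8 of 8 libraries (exact permutation p = 0.0078).

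The pairs of genes gave the same description in cells thinned to 2000 UMIs. A Gja4 UMI was found in 66.1% to 86.2% of cells with a Gja5 UMI and in 14.3% to 24.8% of cells without one, over the 8 libraries. The neighbouring marker of the arterial wall, Sema3g, was found in 49.5% to 75.9% of Gja5 positive cells and in 8.44% to 13.9% of the others. Nr2f2 was found in 0% to 4.40% of Gja5 positive cells against 15.0% to 21.1% of the others, and was less frequent in the positive cells of Gja4, Sox17, Efnb2, Sema3g and Bmx too, in every library. For Cytl1 the share of Nr2f2 positive cells was higher in 3 of 8 libraries. Bmx, a Tec family kinase of arterial ECs, and Gja5 shared cells in both directions: 20.9% to 36% of Gja5 positive cells had a Bmx UMI, against 1.77% to 5.31% of the others, and 25.9% to 45.2% of Bmx positive cells had a Gja5 UMI, against 2.59% to 8.29% of the others.

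A UMI in a droplet can also come from free RNA, so the shares were set beside cells that should lack arterial genes. In 407 Pecam1 positive cells with at least 2 lymphatic markers (median depth 13873 UMIs before thinning to 2000), Gja5 was found in 0.246%, Sox17 in 1.23%, Sema3g and Cytl1 in 0.983% each, and Bmx in 3.19%. Over all 6158 thinned Pecam1 positive cells (median depth 12827 UMIs) these shares were 6.92%, 23.7%, 14.2%, 3.52% and 5.07%. Gja4 and Efnb2 did not separate in this way, with 17.2% and 25.1% in the cells with lymphatic markers against 22.5% and 24.4% in all cells, and Nr2f2 was more frequent in cells with lymphatic markers (49.4% against 18.5%). Gja4, Efnb2 and Nr2f2 are known from lymphatic ECs as well as from blood vessels. A second set was 43 Pecam1 negative cells with at least 2 immune or epithelial markers (median depth 3651 UMIs). There Gja4 was found in 14.0%, Efnb2 in 9.30%, Sox17 in 6.98%, Sema3g in 4.65% and Gja5 in 2.33%, and Bmx and Cytl1 in none. With so few cells these shares are imprecise, and the part of free RNA was not tested.

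The genes most like the arterial set were sought among 8364 non-member genes with a mean level of at least 10 CPM, by the ratio of their level in cells with at least 2 arterial genes to that in cells with none. Of these, 1219 had the higher level in cells with arterial genes in all 8 libraries. By this measure, a median log2 ratio over 8 libraries, Nebl (5.04), Gkn3 (4.93), Serpinf1 (4.54) and Atp2a3 (4.15) led, followed by Col8a1, Gper1, Pcsk5 and Stmn2 (3.71). Serpinf1, a secreted anti-angiogenic serpin, was lower after cGAMP in both models (log2 fold change -1.47 in spontaneous and -1.40 in implanted tumours), as were the calcium pump gene Atp2a3 (-1.203 and -1.28) and Stmn2 (-1.298 and -2.01). Col8a1 was called lower in spontaneous tumours (-0.74, adjusted p = 0.040; -0.46, adjusted p = 0.12, in implanted tumours) and Gkn3 in implanted tumours (-2.27, adjusted p = 0.018; -1.54, adjusted p = 0.11, in spontaneous tumours). Nebl (-0.70 and -0.51), Gper1 (-1.17 and -0.40) and Pcsk5 (-0.70 and -0.86) were called in neither model.

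**Figure D1:**
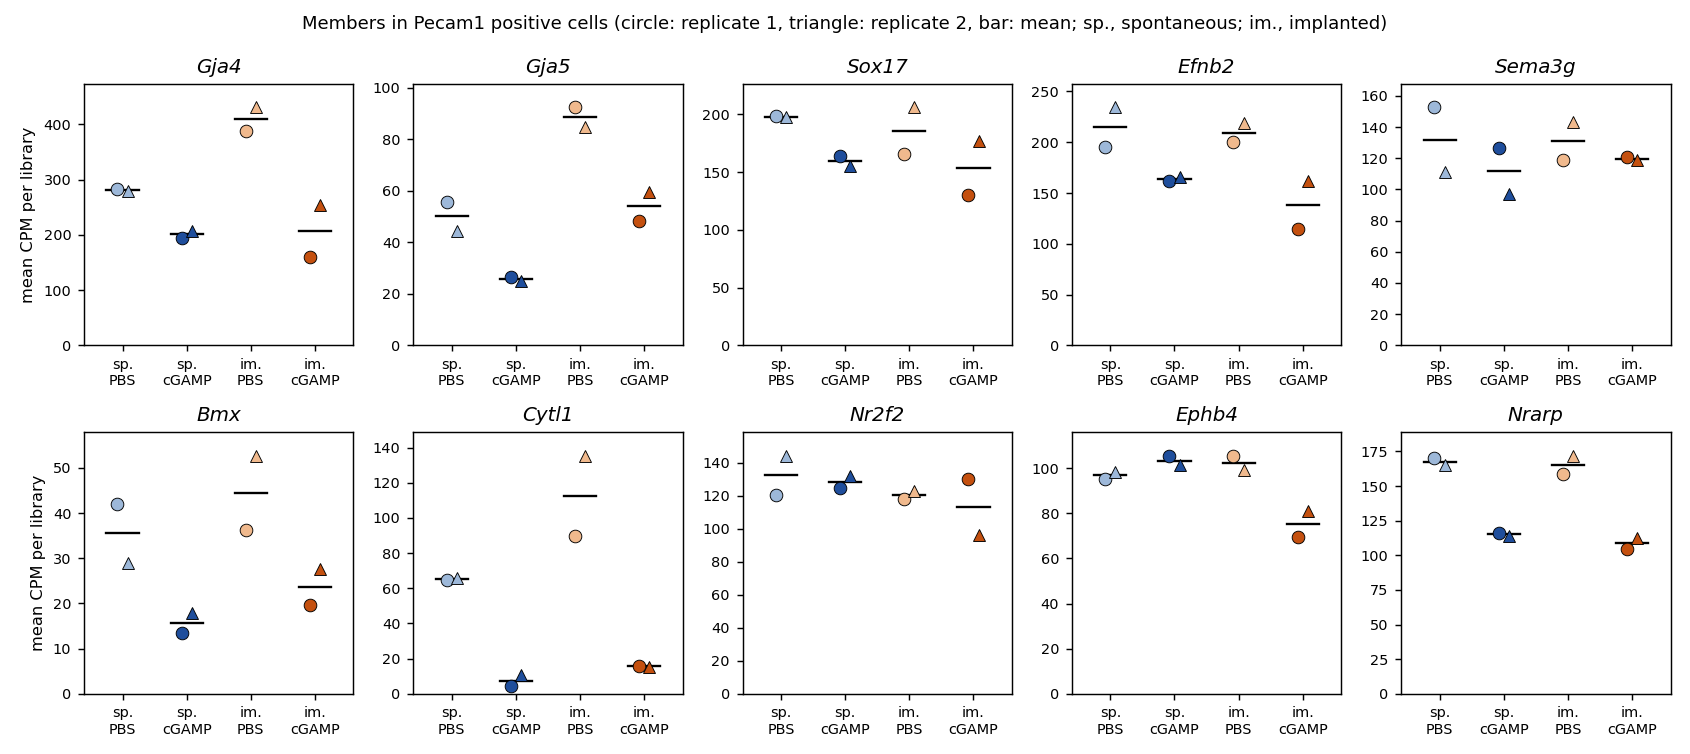
Mean CPM of each of the 10 genes over the Pecam1 positive cells of each library, with 1 panel per gene. Points are libraries (circle, replicate 1; triangle, replicate 2), bars are means of 2 libraries, and each axis starts at 0. Cytl1 lies at 64.7 to 135 CPM in the PBS libraries and at 4.52 to 16.05 CPM in the cGAMP libraries, while Nr2f2 and Sema3g overlap between treatments in both models.

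The effect of cGAMP in all Pecam1 positive cells was tested in each model with limma on log2(mean CPM + 1) of the 8 libraries, over 10424 genes. A gene was called at an adjusted p (Benjamini-Hochberg over all these genes) under 0.05. In spontaneous tumours 3 of the 7 arterial genes were called lower and none higher, where 7.59% of all genes tested were called lower and 5.09% higher (12.7% in either direction). In implanted tumours 5 of 7 were called lower and none higher, beside 16.4% of all genes lower and 8.60% higher (25.0% in either direction). All 7 fitted fold changes were below 0 in each model, with medians of -0.49 and -0.71 on the log2 scale against -0.10 for all genes. Of all calls, 531 of 1322 in spontaneous and 896 of 2609 in implanted tumours were higher; with median-of-ratios scaling, which centred the genes near 0, these became 661 of 1012 and 1189 of 2299, and the 7 arterial genes stayed below 0.

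The gap junction genes were lower after cGAMP in both models. In spontaneous tumours Gja4 was at 284 and 279 CPM after PBS and at 194 and 208 CPM after cGAMP. In implanted tumours it was at 387 and 430 CPM after PBS and at 160 and 254 CPM after cGAMP. The groups did not overlap in either model, but only the change in implanted tumours was called, a fall by 1.01 ± 0.17 on the log2 scale (SE, adjusted p = 0.0027) against -0.49 ± 0.17 (adjusted p = 0.094) in spontaneous tumours. Gja5 went from 55.8 and 44.4 CPM to 26.7 and 24.96 CPM in spontaneous tumours and from 92.4 and 84.7 CPM to 48.4 and 59.8 CPM in implanted tumours. Both cGAMP libraries lay below both PBS libraries in each model, and both changes were called (-0.92 ± 0.14, adjusted p = 0.0027, and -0.71 ± 0.14, adjusted p = 0.0055). Gja5 was called in both models under every alternative tried, leave-one-out fits included.

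Sox17, the SOXF transcription factor of arterial specification, was at 199 and 198 CPM after PBS and at 164 and 156 CPM after cGAMP in spontaneous tumours. The implanted levels were 166 and 206 CPM after PBS and 130 and 177 CPM after cGAMP, and there the groups overlapped. Neither change was called (-0.31 ± 0.14 and -0.28 ± 0.14, adjusted p = 0.18 for both), although without replicate 2 of implanted cGAMP the implanted value was -0.51 (adjusted p = 0.018). In spontaneous tumours the groups did not overlap, so the missed threshold does not show that Sox17 RNA stayed unchanged there.

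The ligand genes differed from each other. Efnb2, which encodes ephrin-B2, was at 196 and 234 CPM after PBS and at 161 and 166 CPM after cGAMP in spontaneous tumours. In implanted tumours its levels were 200 and 219 CPM after PBS and 115 and 161 CPM after cGAMP. No groups overlapped, and the implanted change was called (-0.62 ± 0.15, adjusted p = 0.014) while the spontaneous one was not (-0.39 ± 0.15, adjusted p = 0.12). The secreted semaphorin gene Sema3g was at 153 and 111 CPM after PBS and at 127 and 97.0 CPM after cGAMP in spontaneous tumours, and at 119 and 143 CPM and then 121 and 119 CPM in implanted tumours. Its groups overlapped in both models and its changes were the smallest of the 7 genes (-0.23 ± 0.17, adjusted p = 0.39, and -0.12 ± 0.17, adjusted p = 0.63).

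Bmx was at 42.1 and 29.0 CPM after PBS and at 13.4 and 17.9 CPM after cGAMP in spontaneous tumours. Its implanted levels were 36.2 and 52.7 CPM after PBS and 19.8 and 27.5 CPM after cGAMP. Both changes were called (-1.13 ± 0.24, adjusted p = 0.017, and -0.88 ± 0.24, adjusted p = 0.027), without overlap of the groups. These calls rested on single libraries: the spontaneous one fell away without replicate 1 of spontaneous PBS (adjusted p = 0.12) or replicate 1 of spontaneous cGAMP (adjusted p = 0.13), and the implanted one without replicate 2 of implanted PBS (adjusted p = 0.20) or the shallow replicate 1 of implanted cGAMP (-0.65, adjusted p = 0.12). Bmx had few UMIs, for instance 98 in all cells of replicate 1 of spontaneous cGAMP, which limits its precision.

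Cytl1 showed the largest change of the 10 genes in both models. It was at 64.7 and 65.7 CPM after PBS and at 4.52 and 10.5 CPM after cGAMP in spontaneous tumours. In implanted tumours Cytl1 went from 89.5 and 135 CPM to 16.05 and 15.1 CPM. The mean level was 88.5% lower in spontaneous and 86.1% lower in implanted tumours, with fitted log2 changes of -3.06 ± 0.30 (adjusted p = 0.00013) and -2.74 ± 0.30 (adjusted p = 0.00023). The highest cGAMP library was far below the lowest PBS library in each model. In spontaneous tumours the cGAMP levels rested on 13 and 54 Cytl1 UMIs, fewer than those of any other of the 7 genes, so the size of that fold is imprecise.

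Without the shallow replicate 1 of implanted cGAMP, the implanted log2 changes were -0.68 for Gja4, -0.56 for Gja5, -0.37 for Efnb2 and -2.78 for Cytl1. Bmx lost its call, and Sox17 (-0.06) and Sema3g (-0.14) were again not called. Other libraries moved the calls as well, and the number of all genes called moved in the same fits. Without either implanted cGAMP library, Gja4 and Efnb2 were called in addition in spontaneous tumours, as were more of all genes. The fold changes there stay the same and the shared SE is smaller (0.08 for Gja4). Without replicate 2 of implanted PBS, Efnb2 and Bmx lost their calls in implanted tumours, and fewer of all genes were called. Each of these fits leaves 1 library in a group, so the moved calls are not read as results about the members.

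The venous genes did not move as a pair. Nr2f2 was at 121 and 144 CPM after PBS and at 125 and 132 CPM after cGAMP in spontaneous tumours, and at 118 and 123 CPM and then 131 and 96.3 CPM in implanted tumours. Its groups overlapped in both models, with log2 changes of -0.04 ± 0.14 (adjusted p = 0.89) and -0.10 ± 0.14 (adjusted p = 0.63), the former 0.06 with median-of-ratios scaling. Ephb4, the receptor of ephrin-B2, was at 95.3 and 98.5 CPM after PBS and at 105 and 101 CPM after cGAMP in spontaneous tumours (0.09 ± 0.09, adjusted p = 0.57). In implanted tumours Ephb4 was at 105 and 99.1 CPM after PBS and at 69.5 and 80.9 CPM after cGAMP, a fall by 0.44 ± 0.09 on the log2 scale (adjusted p = 0.0082) that missed the threshold with replicate 1 of implanted PBS left out (adjusted p = 0.059) and in thinned cells (adjusted p = 0.13). With the shallow implanted cGAMP library left out instead, Ephb4 was at -0.33 (adjusted p = 0.036) and Nr2f2 at -0.32 (adjusted p = 0.081).

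The Notch target Nrarp was lower in both models. Its level was 170 and 165 CPM after PBS and 116 and 114 CPM after cGAMP in spontaneous tumours (-0.54 ± 0.08, adjusted p = 0.0026). In implanted tumours its level was 159 and 172 CPM after PBS and 105 and 113 CPM after cGAMP (-0.60 ± 0.08, adjusted p = 0.00078). The groups were far apart against the spread within them in each model. In cells thinned to 2000 UMIs the implanted change was -0.35 (adjusted p = 0.055), and without the shallow implanted cGAMP library it was -0.54 (adjusted p = 0.0033).

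The genes called lower in both models were therefore Gja5, Bmx, Cytl1 and Nrarp, and the 250 bases before the RefSeq transcription start of each are shown on the strand of the gene, 5′ to 3′, from the RefSeq annotation of GRCm38.p6. Capitals mark TGGGAA, the core of the site of the Notch effector RBPJ, and ACAAT, the core of SOX factor sites, each on either strand (so that ACAAT can read ATTGT). The windows are chr3:97032152-97032401 for Gja5, chrX:164258194-164258443 for Bmx (minus strand), chr5:37735269-37735518 for Cytl1 and chr2:25180508-25180757 for Nrarp.
Gja5: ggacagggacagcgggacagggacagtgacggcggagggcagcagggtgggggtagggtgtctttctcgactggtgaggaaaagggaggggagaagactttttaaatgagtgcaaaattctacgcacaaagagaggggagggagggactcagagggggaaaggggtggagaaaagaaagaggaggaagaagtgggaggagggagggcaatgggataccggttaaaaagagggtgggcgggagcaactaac
Bmx: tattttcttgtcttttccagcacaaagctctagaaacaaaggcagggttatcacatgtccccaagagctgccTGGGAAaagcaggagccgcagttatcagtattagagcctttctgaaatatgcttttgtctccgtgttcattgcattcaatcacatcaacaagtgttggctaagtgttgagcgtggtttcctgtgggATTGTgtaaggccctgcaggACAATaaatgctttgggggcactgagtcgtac
Cytl1: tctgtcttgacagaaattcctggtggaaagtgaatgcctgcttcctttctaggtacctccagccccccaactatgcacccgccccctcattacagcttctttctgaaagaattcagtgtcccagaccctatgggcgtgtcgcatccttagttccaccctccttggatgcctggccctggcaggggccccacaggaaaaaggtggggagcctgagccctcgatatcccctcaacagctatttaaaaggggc
Nrarp: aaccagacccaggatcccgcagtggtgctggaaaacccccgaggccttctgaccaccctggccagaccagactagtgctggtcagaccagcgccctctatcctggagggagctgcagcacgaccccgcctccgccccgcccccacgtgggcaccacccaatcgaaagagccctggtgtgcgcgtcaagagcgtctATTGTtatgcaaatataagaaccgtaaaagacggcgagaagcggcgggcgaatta
Of the 10 genes, 9 had a promoter in the table, all but Sox17. TGGGAA was found in the window of Bmx alone and in 21.6% of 32851 promoters of this length. ACAAT was found in those of Bmx, Nrarp and Gja4, and in 27.7% of all promoters. The consensus of the interferon-stimulated response element was found in none of the 9 and in 2.98% of all promoters. The Gja5 window belongs to 1 of several starts, since the gene spans chr3:96904693-97077416. These matches are a description of the letters in the window.

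Whether the arterial genes also changed within cells positive for other arterial genes was the next question. A lower mean level can come from fewer arterial cells or from less RNA in each, and the comparison was repeated within arterial-positive cells, again never letting a gene choose its own cells. In spontaneous tumours 6 of 7 arterial genes were called lower there, all but Sema3g, where 7.31% of all genes were called lower in cells with at least 2 of all 7 arterial genes (12.2% in either direction) and 4.13% to 7.55% in the separate cell sets of the 7 genes. In implanted tumours 2 of 7 were called lower, Gja4 and Cytl1, beside 15.1% of all genes (22.4% in either direction) and 9.55% to 15.3% in the separate cell sets. In these cells of spontaneous tumours the 8 mural markers summed to 145 to 855 CPM after PBS and 870 to 1231 CPM after cGAMP, and the 5 fibroblast markers to 6.27 to 87.0 CPM and then 133 to 137 CPM. In those of implanted tumours the lymphatic markers summed to 271 to 573 CPM after PBS and 1134 to 1208 CPM after cGAMP. Without cells carrying at least 2 mural, epithelial, immune or fibroblast markers, 5 of the 6 were still called in spontaneous tumours and Efnb2 was not (-0.38, adjusted p = 0.079), while in implanted tumours Gja4, Cytl1 and Efnb2 (-0.42, adjusted p = 0.041) were called.

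**Figure D2:**
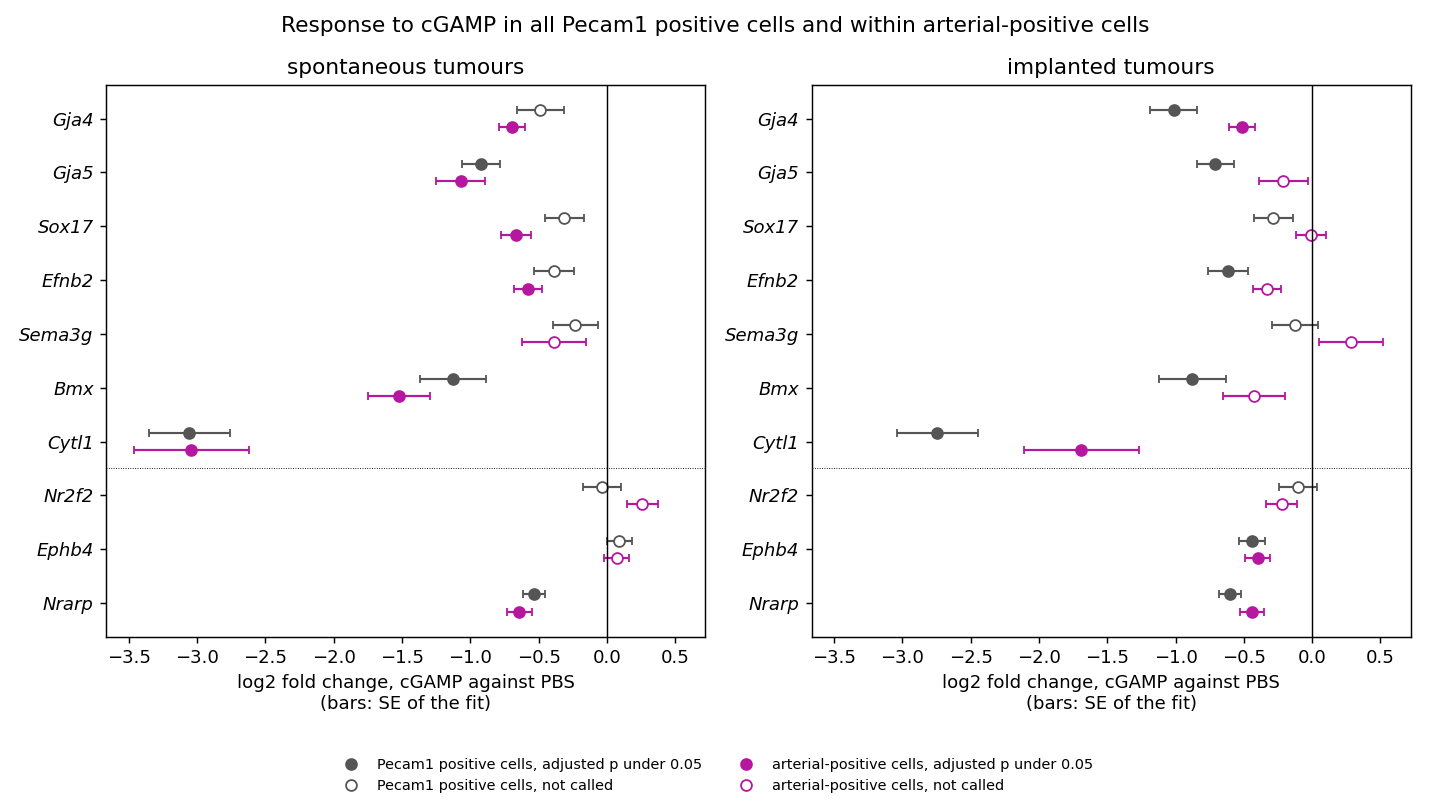
Log2 fold change of cGAMP against PBS for each gene in spontaneous and implanted tumours, in all Pecam1 positive cells (grey) and within arterial-positive cells (magenta). Bars are the SE of the limma fit and filled points passed an adjusted p of 0.05. In spontaneous tumours 6 arterial genes are filled within arterial-positive cells, in implanted tumours only Gja4 (-0.51) and Cytl1 (-1.69).

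Within arterial-positive cells of spontaneous tumours, Gja4 was at 565 and 528 CPM after PBS and at 338 and 336 CPM after cGAMP. Sox17 was at 399 and 345 CPM after PBS and at 225 and 243 CPM after cGAMP. Efnb2 was at 419 and 490 CPM after PBS and at 286 and 321 CPM after cGAMP. In all 3 genes, the cGAMP libraries lay well below the PBS libraries, and the changes were -0.70 ± 0.09 for Gja4 (adjusted p = 0.00097), -0.66 ± 0.11 for Sox17 (adjusted p = 0.0044) and -0.58 ± 0.10 for Efnb2 (adjusted p = 0.0049). Sox17 and Efnb2 just missed the threshold without replicate 1 of spontaneous cGAMP (adjusted p = 0.053 and 0.066). Gja5 fell from 107 and 83.1 CPM to 44.6 and 44.5 CPM (-1.07 ± 0.18, adjusted p = 0.0038), Bmx from 82.8 and 53.2 CPM to 19.2 and 26.4 CPM (-1.52 ± 0.23, adjusted p = 0.0019) and Cytl1 from 102 and 69.6 CPM to 5.46 and 15.6 CPM (-3.04 ± 0.42, adjusted p = 0.0011). Sema3g was at 295 and 209 CPM after PBS and at 206 and 174 CPM after cGAMP, without overlap but below the precision of the test (-0.39 ± 0.23, adjusted p = 0.32).

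Within arterial-positive cells of implanted tumours, Gja4 was at 692 and 730 CPM after PBS and at 550 and 452 CPM after cGAMP, a fall by 0.51 ± 0.09 on the log2 scale (adjusted p = 0.0038). Cytl1 was at 98.8 and 155 CPM after PBS and at 51.98 and 27.2 CPM after cGAMP (-1.69 ± 0.42, adjusted p = 0.017). Neither gene overlapped between treatments. Cytl1 lost its call when replicate 2 of implanted PBS was left out (-1.37, adjusted p = 0.12) and when replicate 2 of implanted cGAMP was (-1.24, adjusted p = 0.11), and the former left 1 of 7 genes called. In arterial-negative cells Cytl1 was at 0.589 and 1.38 CPM after cGAMP in spontaneous and at 0.796 and 0 CPM in implanted tumours. Its mean level there was 98.7% and 99.6% lower than after PBS, against 87.7% and 68.8% lower in arterial-positive cells. The arterial-negative levels rest on few cells with a Cytl1 UMI. In spontaneous tumours these were 6 and 6 cells after PBS and 1 and 1 after cGAMP. In implanted tumours they were 18 and 22 and then 5 and 0. The size of these falls is therefore imprecise, and the difference between the cell sets was not tested. Gja5 was at 167 and 139 CPM after PBS and at 160 and 108 CPM after cGAMP, with overlap (-0.21 ± 0.18, adjusted p = 0.44). Sox17 was at 261 and 320 CPM and then 292 and 284 CPM (-0.01 ± 0.11, adjusted p = 0.98), and Sema3g at 219 and 237 CPM and then 371 and 208 CPM (0.29 ± 0.23, adjusted p = 0.42). Here the shallow replicate 1 of implanted cGAMP was high in Gja5, Sema3g and Cytl1; without it Gja4 and Cytl1 were still called (-0.65 and -2.15) and Gja5 was at -0.49 (adjusted p = 0.076). Without replicate 2 instead, Sema3g was called higher (0.70, adjusted p = 0.031). Efnb2, at 398 and 367 CPM after PBS and 309 and 299 CPM after cGAMP, lay at the edge of the threshold (-0.33 ± 0.10, adjusted p = 0.052), and Bmx did not pass (-0.42 ± 0.23, adjusted p = 0.22).

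The number of calls within arterial-positive cells moved when the cells were chosen at 1 depth. A deeper cell is more easily found positive for 2 genes, and the median depth was 12611 and 14493 UMIs after cGAMP against 9523 and 10401 after PBS in spontaneous tumours. Of Pecam1 positive cells in spontaneous tumours, 48.7% and 51.4% had at least 2 arterial genes after PBS and 58.4% and 56.1% after cGAMP. That is the reverse of the order after thinning. In implanted tumours the share was 54.3% and 60.5% after PBS. After cGAMP it was 28.6% in the shallow replicate 1, with a median of 3049 UMIs, and 55.1% in replicate 2. When cells were chosen on their counts thinned to 2000 UMIs and measured on all their UMIs, 3 of 7 arterial genes were called lower in spontaneous tumours: Gja4 (-0.43, adjusted p = 0.035), Sox17 (-0.55, adjusted p = 0.012) and Cytl1 (-2.19, adjusted p = 0.021). Gja5 (-0.61, adjusted p = 0.10), Bmx (-1.01, adjusted p = 0.056) and Efnb2 (-0.31, adjusted p = 0.25) kept their sign and did not overlap between treatments. In implanted tumours Gja4 alone was called with cells chosen in this way (-0.46, adjusted p = 0.017), and Cytl1 was at -1.11 (adjusted p = 0.19). The share of all genes called was not computed for cells chosen in this way, so these counts cannot be set against it. The sets chosen after thinning were also smaller, for Gja5 108 to 346 cells per library against 307 to 661. They were richer in arterial RNA, with Gja4 at 1088 and 1014 CPM in spontaneous PBS against 565 and 528 CPM. Depth, set size and stricter choice thus cannot be told apart, and the part of depth in the remaining differences was not tested.

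**Figure D3:**
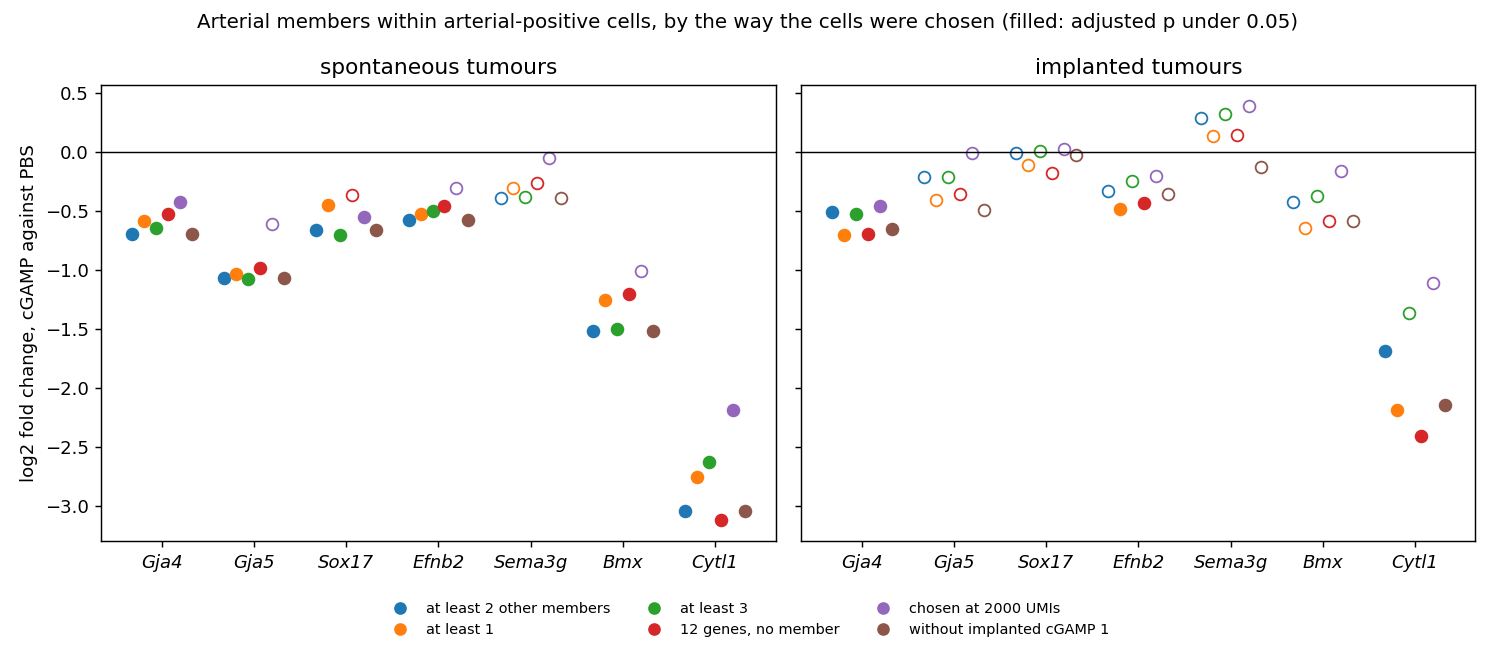
Log2 fold change of cGAMP against PBS of the 7 arterial genes within arterial-positive cells, under 6 ways of choosing cells or libraries, in spontaneous (left) and implanted tumours (right). Filled points passed an adjusted p of 0.05. Gja4 is filled in each of the 6 choices in both models, Cytl1 in each in spontaneous tumours, and Gja5 in none in implanted tumours. Cells both chosen and measured after thinning are not shown, and in those Gja4 was called in neither model.

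The genes that choose the cells are themselves lower after cGAMP, so the cells were also chosen by at least 2 of 12 other arterial genes with no member among them. Of these 12, Stmn2, Dkk2 and Jag1 were lower after cGAMP in both models. In implanted tumours Gkn3 was lower (-2.27) and Dll4 higher, so this choice too can move with treatment. It was also wide, keeping 733 of 965 and 460 of 601 Pecam1 positive cells in spontaneous PBS, 520 of 670 and 540 of 693 in spontaneous cGAMP, 787 of 1000 and 899 of 1097 in implanted PBS, and 793 of 1529 and 461 of 604 in implanted cGAMP. In spontaneous tumours 5 of 7 arterial genes were then called lower, all but Sema3g and Sox17 (-0.36, adjusted p = 0.072). In implanted tumours 3 of 7 were, Gja4 (-0.69), Efnb2 (-0.43) and Cytl1 (-2.41). The share of all genes called was not computed in these cells, so these counts cannot be set against it. Gja4 was called in both models with cells chosen by all their UMIs, after thinning or by these 12 genes. In cells both chosen and measured after thinning it was not (-0.38, adjusted p = 0.31, and -0.43, adjusted p = 0.25).

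The comparison genes were measured in arterial-positive cells as well. Nrarp was at 204 and 221 CPM after PBS and at 139 and 132 CPM after cGAMP in spontaneous tumours (-0.64 ± 0.09, adjusted p = 0.0013), and at 192 and 203 CPM and then 155 and 137 CPM in implanted tumours (-0.44 ± 0.09, adjusted p = 0.0067; 0.055 without replicate 2 of implanted PBS). It was called in both models also with cells chosen after thinning. Ephb4 was at 113 and 107 CPM after PBS and at 77.5 and 88.8 CPM after cGAMP in implanted tumours (-0.40 ± 0.09, adjusted p = 0.013), not called with either of 2 libraries left out, replicate 1 of implanted PBS (adjusted p = 0.088) or replicate 1 of implanted cGAMP (adjusted p = 0.072). In spontaneous tumours Ephb4 was at 101 and 102 CPM after PBS and at 105 and 109 CPM after cGAMP (0.07 ± 0.09, adjusted p = 0.66).

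Nr2f2 in arterial-positive cells was at 87.8 and 96.9 CPM after PBS and at 111 and 110 CPM after cGAMP in spontaneous tumours, and at 90.5 and 81.1 CPM and then 66.4 and 81.0 CPM in implanted tumours. Neither change was called (0.26 ± 0.11, adjusted p = 0.17, and -0.22 ± 0.11, adjusted p = 0.20). With cells chosen after thinning, Nr2f2 was at 22.2 and 47.3 CPM after PBS and at 69.5 and 75.3 CPM after cGAMP in spontaneous tumours, without overlap but not called (1.13, adjusted p = 0.21), and its groups overlapped in implanted tumours (-0.13, adjusted p = 0.91). Nr2f2 is also a gene of lymphatic ECs, whose 6 markers summed to 334 to 500 CPM after PBS and 1640 to 1648 CPM after cGAMP in implanted tumours. Without cells carrying at least 2 lymphatic markers, Nr2f2 was called lower in arterial-positive cells of implanted tumours (-0.80, adjusted p = 0.00043), and the difference between the responses of the models was called as well (-1.13, adjusted p = 0.018). In all Pecam1 positive cells the implanted value without these cells was -0.50 (adjusted p = 0.14).

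The share of arterial-positive cells was compared at 1 depth, in cells thinned to 2000 UMIs. At least 2 of the 7 arterial genes were found in 24.3% (95% Wilson interval 21.6% to 27.3%) and 25.1% (21.7% to 28.9%) of cells after PBS in spontaneous tumours. After cGAMP the share was 21.1% (18.2% to 24.5%) and 17.3% (14.6% to 20.4%). In implanted tumours it was 26.8% (24.0% to 29.7%) and 35.2% (32.3% to 38.1%) after PBS, and 17.9% (15.6% to 20.5%) and 23.2% (19.9% to 26.8%) after cGAMP. Both cGAMP libraries were below both PBS libraries in each model, with mean differences of -5.48 percentage points in spontaneous and -10.4 in implanted tumours. The share rests on UMIs of the same 7 genes, so it also falls when their RNA per cell falls. It is therefore no count of arterial cells. No p is given for this share, since its genes were chosen with earlier results of these data known. The intervals cover counting error only, and 1001 cells under 2000 UMIs were left out, most of them from replicate 1 of implanted cGAMP.

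**Figure D4:**
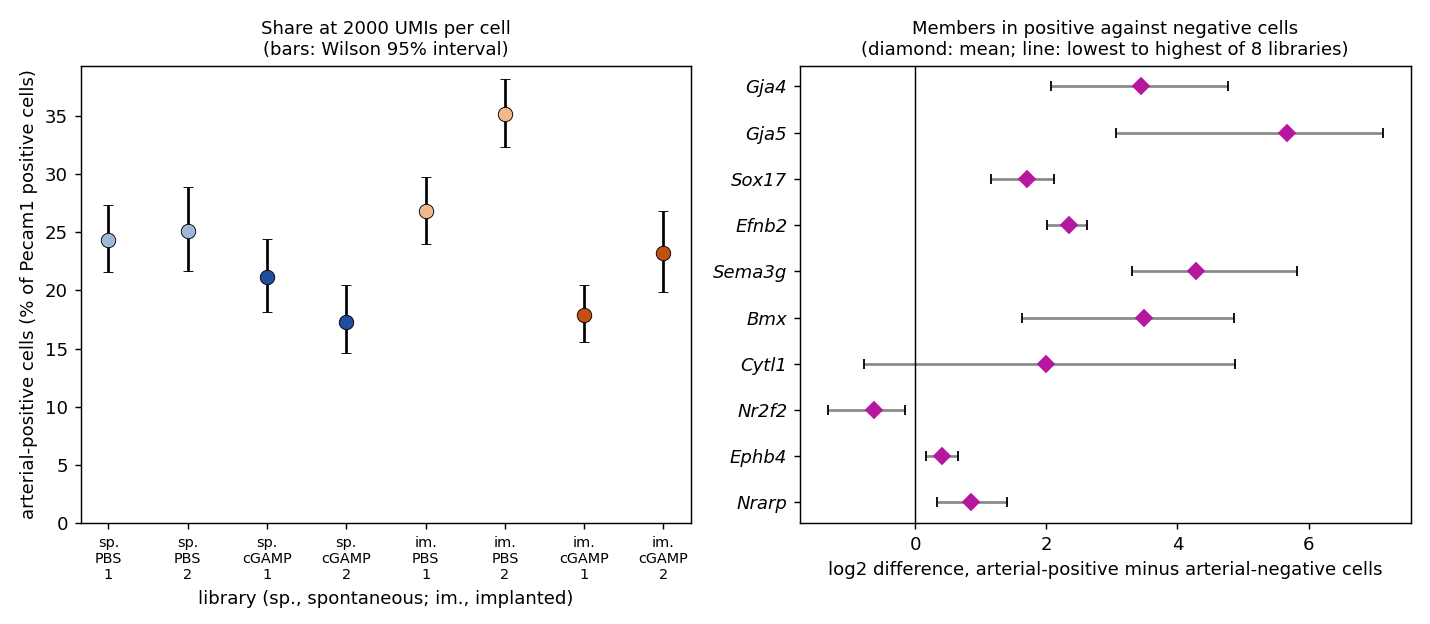
Left, percentage of Pecam1 positive cells with at least 2 of the 7 arterial genes after thinning to 2000 UMIs, per library, with 95% Wilson intervals and an axis from 0. Right, log2 difference of each gene between arterial-positive and arterial-negative cells, as the mean (diamond) and the lowest to highest of 8 libraries. The share was 17.3% to 23.2% in cGAMP libraries and 24.3% to 35.2% in PBS libraries, and of the 10 genes Nr2f2 alone lies below 0 throughout.

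The level of a gene can be split into the share of thinned cells with a UMI and the UMIs in each such cell. For Cytl1 both were lower after cGAMP. Its share was 3.59% and 2.53% after PBS and 0.772% and 0.936% after cGAMP in spontaneous tumours, and its UMIs per positive cell went from 4.06 and 5.64 to 1.2 and 1.67. In implanted tumours the share was 5.27% and 7.89% and then 2.002% and 2.30%, with 3.29 and 3.75 and then 2.63 and 1.46 UMIs per positive cell. For Gja4 the share of positive cells was 21.3% and 22.9% and then 17.3% and 17.0% in spontaneous tumours, with 2.77 and 2.61 and then 2.13 and 2.55 UMIs in each, and 25.8% and 31.0% and then 17.5% and 23.5% in implanted tumours, with 2.92 and 2.78 and then 2.39 and 2.41 UMIs. Both parts of the Gja4 level were thus lower in every cGAMP library than in the PBS libraries of its model. For Gja5, share and UMIs did not move together, since the share fell from 9.99% and 10.2% to 6.22% and 6.55% in implanted tumours while its UMIs per positive cell were 1.82 and 1.76 after PBS and 1.97 and 1.59 after cGAMP. A share of cells with a UMI at this depth is not a share of cells that express the gene.

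The responses of the models were compared by the difference of their fold changes. None of the 10 genes was called in this contrast in Pecam1 positive cells, where 0.662% of all genes were, and by unadjusted p under 0.05, which 1400 of all 10424 genes reached, only Ephb4 was (difference -0.53 ± 0.13, adjusted p = 0.12). Gja4 was next, with a difference of -0.53 ± 0.24 (adjusted p = 0.38). Without replicate 2 of implanted cGAMP, both were called: Gja4 at -0.86 (adjusted p = 0.017) and Ephb4 at -0.64 (adjusted p = 0.043). Within arterial-positive cells none of the 10 was called by limma either, beside 0.355% of all genes in cells with at least 2 of all 7 (0.0863% to 0.489% in the separate cell sets), and 6 of 10 had an unadjusted p under 0.05, as had 1279 of 10435 genes in cells with at least 2 of all 7. The difference was above 0 for all 7 arterial genes. It was 1.35 ± 0.60 for Cytl1 (adjusted p = 0.40) and 1.098 ± 0.32 for Bmx (adjusted p = 0.21). For Gja5 it was 0.86 ± 0.25 (adjusted p = 0.22) and for Sox17 0.66 ± 0.16 (adjusted p = 0.15). Nr2f2 (-0.48 ± 0.16, adjusted p = 0.28) and Ephb4 (-0.47 ± 0.13, adjusted p = 0.20) lay below 0. More arterial genes were called in spontaneous than in implanted arterial-positive cells, but this contrast called none of the 7 as different between the models.

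Levels were also compared between the models under the same treatment. After PBS, 1 of 7 arterial genes was called, where 7.83% of all genes were (3.39% higher in implanted tumours): Gja5 was higher in implanted tumours by 0.82 ± 0.14 on the log2 scale (adjusted p = 0.0085), a call that ended without replicate 2 of spontaneous PBS (adjusted p = 0.080) or replicate 1 of implanted PBS (adjusted p = 0.078). Without either implanted cGAMP library Gja4 was called too, higher in implanted tumours by 0.53 (adjusted p of 0.0026 and 0.0028). After cGAMP, 2 of 7 were called (13.8% of all genes, with 5.23% higher and 8.53% lower in implanted tumours), both higher in implanted tumours: Gja5 (1.03 ± 0.14, adjusted p = 0.0028) and Cytl1 (1.06 ± 0.30, adjusted p = 0.044). The Cytl1 call was lost without any 1 of 5 libraries, either replicate of spontaneous PBS (adjusted p = 0.066 for both), replicate 1 of spontaneous cGAMP (0.19) and replicate 1 (0.11) or 2 (0.075) of implanted cGAMP. Ephb4 was lower in implanted than in spontaneous tumours after cGAMP (-0.46 ± 0.09, adjusted p = 0.015), and missed the threshold without replicate 1 of implanted cGAMP (adjusted p = 0.055) and without either spontaneous cGAMP library (0.086 and 0.090).

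Within arterial-positive cells the models differed in more of these genes after cGAMP. Gja4 (0.56 ± 0.09, adjusted p = 0.0074), Gja5 (1.54 ± 0.18, adjusted p = 0.0022), Bmx (1.22 ± 0.23, adjusted p = 0.010) and Cytl1 (1.90 ± 0.42, adjusted p = 0.020) were higher in implanted tumours, beside 10.4% of all genes called, 3.79% higher and 6.59% lower, in cells with at least 2 of all 7 (4.95% to 11.4% in the separate cell sets). Nr2f2 (-0.58 ± 0.11, adjusted p = 0.013) and Ephb4 (-0.36 ± 0.09, adjusted p = 0.037) were lower there. These values moved with the choice of cells and with single libraries. With cells chosen after thinning, Gja5 alone of the 6 was still called, Gja4 being at 0.15 (adjusted p = 0.52), Bmx at 0.93 (0.082) and Cytl1 at 1.5 (0.12). Without replicate 1 of spontaneous cGAMP all but Gja5 lost the call (adjusted p of 0.051 for Gja4, 0.078 for Bmx, 0.12 for Cytl1, 0.073 for Nr2f2 and 0.12 for Ephb4). Without replicate 1 of implanted cGAMP, Bmx (0.065), Cytl1 (0.12), Nr2f2 (0.066) and Ephb4 (0.17) lost it, and without replicate 2 of spontaneous cGAMP Gja4 (0.075), Nr2f2 (0.092) and Ephb4 (0.20). Ephb4 was also lost without either implanted PBS library (0.051 and 0.050). After PBS none of the 7 arterial genes was called by limma (5.79% of all genes, and 2.70% to 5.77% in the separate cell sets) and 4 had an unadjusted p under 0.05 (2168 of 10435 genes in cells with at least 2 of all 7), with Gja4 at 0.38 ± 0.09 (adjusted p = 0.051) and Gja5 at 0.68 ± 0.18 (adjusted p = 0.054) closest to the threshold. Both were called without either implanted cGAMP library (adjusted p = 0.016 for Gja4 and 0.021 for Gja5), and Gja5 without replicate 1 of spontaneous PBS (0.048). With the replicate number as a block this Gja5 difference was called (adjusted p = 0.018).

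Other genes of the arterial and venous programmes, from lists chosen with earlier results of these data known, were counted in all Pecam1 positive cells. All these counts stand beside the shares of all genes given above, 7.59% lower and 5.09% higher in spontaneous and 16.4% lower and 8.60% higher in implanted tumours. Of 16 other arterial genes tested, 8 were called lower and 0 higher in spontaneous tumours and 10 lower and 1 higher in implanted tumours, with median log2 changes of -0.62 and -0.94. The elastic fibre gene Eln (-1.71 and -1.96), Stmn2 (-1.298 and -2.01) and the Wnt antagonist gene Dkk2 (-1.13 and -1.62) were called in both models, and Gkn3 in implanted tumours (-2.27; -1.54 and not called in spontaneous tumours). Nrp1 stands in this list and in that of semaphorin partners.

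The partners of the signalling genes were counted against the same shares of all genes. Of 13 Notch pathway genes tested, 3 were called lower in each model and 1 higher in implanted tumours. The ligand gene Jag1 (-0.74 and -0.98) and the glycosyltransferase gene Lfng (-0.87 and -1.09) were lower in both models, Notch1 in spontaneous tumours only by its own test (-0.32; -0.21 in implanted tumours, not called), and the ligand gene Dll4 was higher in implanted tumours (0.37; -0.12 in spontaneous tumours, not called). Of 17 transcription factor genes placed upstream of arterial genes, 0 were called by limma in spontaneous tumours, with 4 at an unadjusted p under 0.05 (3050 of all 10424 genes), and 6 were lower in implanted tumours, among them Epas1 (-0.79), Foxc1 (-0.73), Ets1 (-0.44) and Elk3 (-0.38). Of 6 ephrin and Eph receptor genes tested, 3 were lower in each model: Ephb1 (-1.18 and -1.67), Epha4 (-0.83 and -1.09) and Efna1 (-0.34 and -0.49). Of 3 other connexin genes tested, 1 was lower in each model, Gja1 in spontaneous (-0.34) and Gjc1 in implanted tumours (-0.68). Of 9 receptors and ligands of the class of Sema3g, 3 were lower in spontaneous tumours, and 3 were lower and 2 higher in implanted tumours. The receptor genes Nrp1 (-0.59 and -0.87), Plxnd1 (-0.44 and -0.65) and Nrp2 (-0.47 and -0.38) were lower in both, and Sema3a was higher in implanted tumours (1.296). Of 6 kinase genes grouped with Bmx, Tec was lower in spontaneous tumours (-1.08) and Tek (-0.47) and Kdr (-0.42) in implanted tumours.

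Among 12 other venous genes tested, 4 were lower and 2 higher in spontaneous tumours and 5 lower and 1 higher in implanted tumours, beside 12.7% and 25.0% of all genes called in either direction. Vwf, the gene for von Willebrand factor, was lower in both (-1.37 and -2.22), the adhesion receptor gene Sele in spontaneous tumours (-1.21; -0.75 and not called in implanted tumours), and the apelin receptor gene Aplnr in implanted tumours (-0.95; -0.26 and not called in spontaneous tumours). The adhesion receptor gene Vcam1 was higher in spontaneous tumours (1.19; 0.57 and not called in implanted tumours). The medians of this list, -0.26 and -0.40, lay below the -0.10 of all genes, as did those of the arterial lists.

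Some marker lists of other cells differed between treatments in the Pecam1 positive cells, and others overlapped. Besides the 6 lymphatic markers, the 8 mural markers summed to 210 to 589 CPM after PBS and 636 to 863 CPM after cGAMP in spontaneous tumours, and to 213 to 228 and then 165 to 388 CPM in implanted tumours. In spontaneous tumours the 6 immune markers summed to 10.7 to 11.8 CPM after PBS and 21.8 to 31.9 CPM after cGAMP, the 5 fibroblast markers to 13.1 to 64.6 and then 97.8 to 98.4 CPM, the 5 proliferation markers to 75.8 to 115 and then 14.1 to 20.1 CPM, and the 6 epithelial markers to 85.7 to 147 and then 103 to 109 CPM. The immune markers summed to 9.24 to 12.3 CPM after PBS and 40.1 to 162 CPM after cGAMP in implanted tumours, and the proliferation markers to 209 to 248 and then 8.84 to 28.5 CPM. The epithelial markers went from 47.1 to 60.3 CPM to 49.4 to 334 CPM in implanted tumours, and the fibroblast markers from 13.3 to 18.2 CPM to 59.1 to 85.7 CPM. In implanted cGAMP the highest mural (388 CPM), immune (162 CPM), epithelial (334 CPM) and fibroblast (85.7 CPM) sums were all those of the shallow replicate 1. No marker of these lists was at 0 in any library. Their part in the responses was not tested beyond leaving out cells. Without cells carrying at least 2 mural, epithelial, immune or fibroblast markers, Gja5 and Cytl1 were still called in both models and Bmx in neither (adjusted p = 0.080 and 0.093). Without cells with at least 2 lymphatic markers, Gja4, Gja5, Efnb2, Bmx and Cytl1 were all still called in implanted tumours. No doublet caller was run.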

How the data were processed

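Per the labels and the study's methods, the authors mapped reads to mm10 with Cell Ranger 3.0.0, used Seurat 3.1.1, left out cells under 500 genes or over 10% mitochondrial RNA and removed genes seen in under 3 cells. Each library has its own deposited table. The deposited values are natural log values, ln(1 + UMIs × 10000 / UMIs of the cell). Dividing the linear values of a cell by their smallest gave whole UMIs within a tolerance of 0.01. From these the CPM of each cell (its UMIs scaled to a total of 1000000) was computed here and averaged per library over cells with a Pecam1 UMI. The tests use log2(mean CPM + 1), for genes that reached 5 CPM in 2 or more libraries, in 1 limma fit (3.58.1, R 4.3.3, trend) of the 4 group means over 8 libraries, with Benjamini-Hochberg adjustment over all genes and a threshold of 0.05. The fold changes understate those of low genes. Thinning drew 2000 UMIs per cell without replacement. Groups came from the labels alone. All 10 genes are named in each comparison, and from each list at most 4 called genes with the largest change. The genes and lists were chosen with earlier results of these data known. The fit was tested on simulated data. Of the alternatives, those that changed a call are given in the closing section or beside the result. Sequences come from the RefSeq tables of GRCm38.p6. Replicate numbers did not pair the libraries, with correlations of deviations from -0.22 to 0.13 between groups. How the deposited cells were chosen beyond these filters is not given in the sources used here.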

Additional observations from a re-analysis of the deposited data

How the results depend on the processing

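Among single genes, 356 of 380 alternative values of the response in Pecam1 positive cells and 421 of 460 in arterial-positive cells kept their direction and their side of the threshold, and 0 called values changed sign. In 7 and 17 cases a value that was not called changed sign. Between the models 762 of 840 did so and 1 turned, Ephb4 in arterial-positive cells after cGAMP, at 0.0077 in thinned cells (adjusted p = 0.999). The counts of arterial genes called moved as follows. Leaving out 1 library gave 2 to 5 in spontaneous and 3 to 6 in implanted tumours, 0 to 1 for the difference of the responses, 0 to 2 between models after PBS and 1 to 2 after cGAMP, 1 to 2 for the comparison genes in implanted tumours, and 4 to 6 and 1 to 3 within arterial-positive cells of spontaneous and implanted tumours. With UMIs summed per library, 5 were called in spontaneous tumours, 2 between models after PBS and 4 after cGAMP. With no filter on low values, 3 were called in implanted tumours, 1 between models after cGAMP and 1 within implanted arterial-positive cells. Between models after cGAMP, a pseudocount of 5 CPM, all deposited cells, or leaving out cells with markers of other cell types each left 1, and the last left 0 after PBS. In cells thinned to 2000 UMIs, 0 comparison genes were called in implanted tumours, and 1 and 0 arterial genes within arterial-positive cells of spontaneous and implanted tumours. With cells chosen after thinning these were 3 and 1, and with at least 3 other arterial genes 1 in implanted tumours. For arterial-positive cells the share of all genes called was computed in the main setting only, and the causes were not tested. With the replicate number as a block, the counts were 3 and 5 in spontaneous and implanted tumours and 6 and 2 within arterial-positive cells, as without it; the numbers give no pairing of animals. The count of all genes called ranged from 448 to 2839 in spontaneous (1322) and 1265 to 3722 in implanted tumours (2609), from 0 to 171 for the difference (69), and from 212 to 1317 and 156 to 2069 between models after PBS (816) and cGAMP (1434). With 2 libraries a group, and 13 UMIs of Cytl1 in the library with fewest, small changes of rare genes lay beyond these data.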

Other observations

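Cells without a Pecam1 UMI, 50 to 496 per library, entered no test except the alternative with all deposited cells. Nr2f2 was at 127 and 321 CPM in those of spontaneous PBS and at 428 and 317 CPM in those of spontaneous cGAMP. In implanted tumours it was at 45.9 and 8.98 CPM after PBS and at 146 and 49.3 CPM after cGAMP. The summed level of 8 mural markers in the same cells was 335 and 7767 CPM in spontaneous PBS, 6582 and 6897 CPM in spontaneous cGAMP, 315 and 311 CPM in implanted PBS and 345 and 1459 CPM in implanted cGAMP. The 3 libraries with the highest mural sums were thus also the 3 with the highest Nr2f2 level.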
